A study of Homo sapiens with 4 samples.

Results

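The amino acid transporter genes described here are the rows of the count table that map to a protein-coding autosomal or X-linked gene whose symbol begins with SLC1A, SLC3A, SLC6A, SLC7A, SLC36A, SLC38A or SLC43A and a number. There were 60 such genes among the 20263 of the table. One of them, SLC7A6OS, matches by its symbol alone: it lies on the opposite strand to SLC7A6 and encodes no transporter, which leaves 59 carriers and carrier subunits. The cells were HCT116, a human colon cancer line, given the compound 7A (called a neratinib derivative in the series title) or DMSO, its control, for 24 h. There were 2 libraries per group. The dose of 7A is not given, the design text speaks of cells without treatment where the labels say DMSO, and nothing states that replicates were grown as separate cultures. The p-values therefore measure the spread of these libraries, and that spread may be technical.

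Amino acids cross the plasma membrane and the lysosomal membrane through carriers of these families. Heteromeric transporters pair a heavy chain of the SLC3A family, which carries the complex to the membrane, with a light chain of the SLC7A family, which does the transport. Sodium-coupled carriers such as those of the SLC38A family load the cell with glutamine and other small neutral amino acids. Exchangers such as SLC7A5 then trade these for leucine and other essential ones. Shortage of amino acids and the kinases of the integrated stress response raise the transcription factor ATF4, many of whose known targets are genes of these carriers and of amino acid synthesis.

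Library totals ran from 29769568 to 61605005 counts, with the 7A libraries the deeper pair. A gene with no count could still have had 3 (95% confidence), or 0.0543 to 0.0918 CPM depending on the library, a limit that covers counting error alone. Levels are in CPM, the usual scaling of counts to the library total, here with TMM factors from edgeR. Changes are log2 ratios of 7A to DMSO, each with its standard error, and a gene "rose" or "fell" where its adjusted p in edgeR's quasi-likelihood test over 14026 genes was under 0.05. Counts are relative within a library, so a change in the RNA content or number of the cells cannot be told apart from a change of all other genes. Of the markers of a colon epithelial line, EPCAM, KRT8, KRT18, KRT19, CDH1 and CDX2 were all above 9 CPM in every library, whereas VIL1 and KRT20, which mark differentiated enterocytes, were at most 1.10 CPM. The 8 epithelial markers summed to 4119 and 3667 CPM with DMSO and 6903 and 7243 CPM with 7A. Most of this sum came from KRT8, KRT18 and KRT19, which rose. EPCAM and KRT20 rose too, while CDH1 and CDX2 had lower means with 7A and did not pass. The 4 blood markers summed to 2.49 to 4.09 CPM, the 3 endothelial ones to 0.195 to 1.03 CPM and the 4 fibroblast ones to 34.1 to 58.0 CPM, nearly all of the last from COL1A1. HBA1 made up nearly all of the blood sum. HBB, CD3E, COL1A2 and DCN were at 0 in every library and PTPRC near 0. The part of any of these in the results was not tested.

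Of the 60 genes, 36 had enough counts to be tested, 9 rose and 7 fell. Among all tested genes 23.9% rose and 24.6% fell, and the shares among the 36 were 25.0% and 19.4%. Rises of at least 2-fold were made by 6 of the 36 (16.7%), against 7.11% of all tested genes. Of these, SLC1A5, SLC38A5, SLC43A1 and SLC43A3 were near that cut, at 1.09 to 1.18 in log2. With library totals alone they were under 2-fold (0.83 to 0.91), while SLC3A2 (1.91) and SLC6A9 (1.11) stayed above it. The share of all tested genes above 2-fold in that fit was not computed. Both 7A libraries lay above both DMSO libraries for 15 of the 36 (41.7%), against 38.2% of all tested genes. No test of these shares was made. The median change was 0.08, with a range from -3.92 to 2.17, beside a median of -0.03 over all tested genes. The remaining 24 genes were not tested: 13 had no count in any library, and the other 11 had at most 25 counts (0.765 CPM) in any library. Those not tested included the intestinal carriers SLC6A19 and SLC6A14, both without a count, and 11 of the 19 SLC6A genes.

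**Figure D1:**
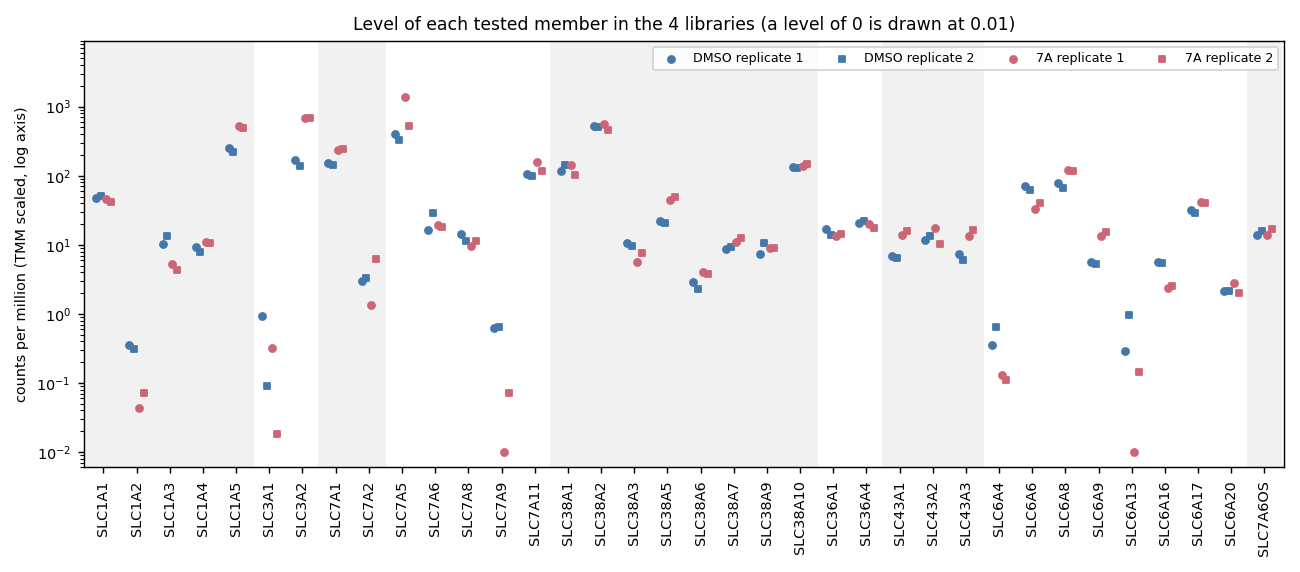
Level of each tested member in each of the 4 libraries, in TMM-scaled CPM on a log axis, grouped by family (shaded bands). The 7A libraries of SLC3A2, at 687 and 691, sit far above its DMSO libraries, at 169 and 137, while the 7A libraries of SLC7A5 lie far apart at 1391 and 520.

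The heavy chain SLC3A2 (ENSG00000168003, chromosome 11, 62856102 to 62888875, GRCh38), also called CD98, showed the largest rise of the members. It read 169 and 137 CPM with DMSO and 687 and 691 CPM with 7A. The groups did not overlap, and the 7A libraries were nearly equal. Its mean went from 153 ± 22.6 to 689 ± 2.48 CPM (SD, n = 2 per group), a log2 change of 2.17 ± 0.14 (edgeR adjusted p 0.000471), and the rise passed in all 17 alternative analyses, between 1.91 and 2.34. The other heavy chain, SLC3A1, which serves cystine uptake in kidney and gut, had only 32 and 3 counts with DMSO and 15 and 1 with 7A. Its libraries disagreed within both groups, and the change did not pass (-1.65 ± 1.45, edgeR adjusted p 0.394). PREPL, on the opposite strand, shares 29.4% of the exon length of SLC3A1, and without strand the reads of both genes cannot be told apart. AC013717.1 shares 26.9% of it on the same strand, where strand would not separate the reads.

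Of the 6 light chains that pair with SLC3A2, 4 were tested and none passed in edgeR. SLC7A5 (ENSG00000103257, chromosome 16, 87830023 to 87869488), also called LAT1, carries leucine and other large neutral amino acids and was the best expressed light chain. It read 398 and 332 CPM with DMSO and 1391 and 520 CPM with 7A. Both 7A libraries were above both DMSO libraries, but the 7A pair differed by a factor of 2.67. A gap of over 2-fold between the 7A libraries was found in 1.32% of the 9755 genes averaging 10 CPM or more. The change of 1.39 ± 0.59 did not pass (edgeR adjusted p 0.157). Without 7A replicate 1 it was 0.53 (edgeR adjusted p 0.0473), and without 7A replicate 2 it was 1.93 (edgeR adjusted p 0.0147). Each of these fits has a single 7A library, which is assumed to vary as the DMSO pair does, so neither p includes the gap between the 7A libraries. Its level is uncertain in one further respect, since GENCODE 29 holds the pseudogenes SLC7A5P1 and SLC7A5P2 and the sources do not state how reads were shared among copies.

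SLC7A11, also called xCT, which imports cystine in exchange for glutamate and is known as a gene that p53 represses, read 105 and 99.4 CPM with DMSO and 160 and 116 CPM with 7A. The groups did not overlap, but the change of 0.43 ± 0.17 did not pass (edgeR adjusted p 0.0732). It passed without 7A replicate 2 (0.64, edgeR adjusted p 0.0216) and after a correction for GC content and transcript length (0.83, edgeR adjusted p 0.00434). SLC7A6, which exchanges arginine for neutral amino acids, read 16.3 and 28.9 CPM with DMSO and 19.1 and 17.9 CPM with 7A, and its groups overlapped (-0.29 ± 0.28, edgeR adjusted p 0.42). The exons of SLC7A6 and SLC7A6OS overlap over 44.4% of the length of SLC7A6, and SLC7A6OS itself read 14.1 and 15.9 CPM with DMSO and 14 and 16.9 CPM with 7A (0.04 ± 0.18, edgeR adjusted p 0.853). SLC7A8, also called LAT2, another leucine carrier, read 14.4 and 11.4 CPM with DMSO and 9.62 and 11.5 CPM with 7A and did not pass (-0.29 ± 0.20, edgeR adjusted p 0.251). The libraries overlapped there as well. SLC7A7, a relative of SLC7A6 in gut and kidney, had 7 and 13 counts with DMSO and again 7 and 13 with 7A, and SLC7A10, a small neutral amino acid carrier, had 6 and 5 and then 0 and 2. Neither was tested.

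Per kilobase of merged exons, the level of SLC3A2 in DMSO was 32.6 and 26.4 CPM per kb, against 99.5 and 86.1 for its 6 light chains together. The ratio of heavy to light chain transcripts was 0.328 and 0.307 in the DMSO libraries and 0.423 and 1.06 in the 7A libraries. It was thus higher in both 7A libraries, by amounts that differ with the level of SLC7A5. SLC7A5 made up 84.3% and 81.2% of the light chain level with DMSO and 93.4% and 87.0% with 7A, whereas the share of SLC7A11 was 11% and 12% and then 5.30% and 9.56%. These ratios use the merged exons of all annotated transcripts, which can be longer than the transcript expressed.

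**Figure D2:**
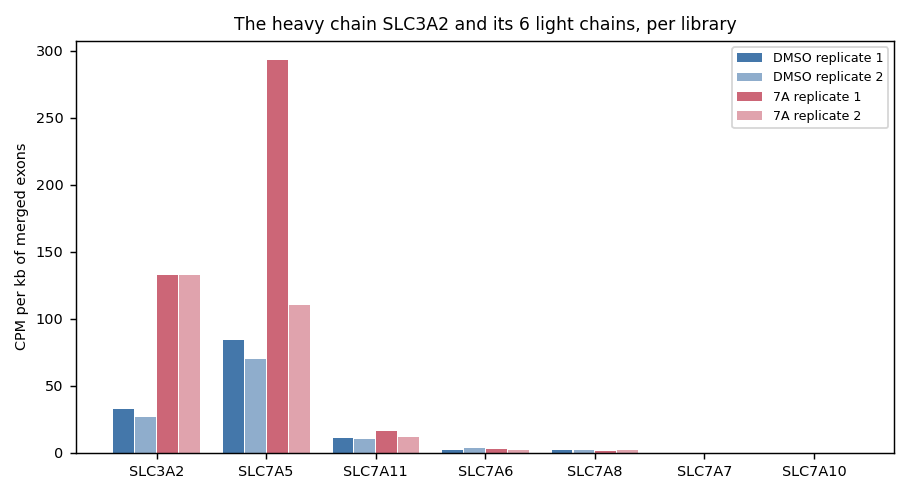
Level of the heavy chain SLC3A2 and of the 6 light chains it pairs with, in CPM per kilobase of merged exons, 1 bar per library. The SLC3A2 bars of the 7A libraries are equal at 133, while those of SLC7A5 are 293 and 110.

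The promoter windows of the rising members that hold a match, SLC3A2 and SLC7A1, are printed because the C/EBP-ATF response element, through which ATF4 acts, has a short core that can be searched for. Windows from RefSeq (GRCh38.p14, 250 bases before to 50 after each start) were held for 45 of the 60 genes. The core was written as TGATGNAA and searched on both strands. It occurred in 1270 of 35116 windows (3.62%), and in 4 of the 44 windows of carriers. Of the 8 rising carriers with a window 2 had it, SLC3A2 and SLC7A1. It was also in the windows of SLC1A3, which fell, and of SLC38A1, which did not pass, making 1 of 4 that fell, 1 of 16 that did not pass and 0 of 16 not tested. A match is a description of these letters, and no match says only that the letters are not in this window. The SLC3A2 window (chr11:62881449-62881748, plus strand) is at a start inside the annotated gene. In both sequences below the capitals mark the core. In SLC3A2 it is read on the minus strand with its first printed base at position 38 after the start, and in SLC7A1 (chr13:29595639-29595938, minus strand) it is on the strand of the gene at position 8.
SLC3A2: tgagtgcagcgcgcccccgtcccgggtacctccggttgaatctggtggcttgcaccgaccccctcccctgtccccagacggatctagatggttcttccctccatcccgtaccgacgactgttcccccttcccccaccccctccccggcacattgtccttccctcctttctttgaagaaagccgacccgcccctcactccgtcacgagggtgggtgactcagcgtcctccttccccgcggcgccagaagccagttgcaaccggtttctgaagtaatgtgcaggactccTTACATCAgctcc
SLC7A1: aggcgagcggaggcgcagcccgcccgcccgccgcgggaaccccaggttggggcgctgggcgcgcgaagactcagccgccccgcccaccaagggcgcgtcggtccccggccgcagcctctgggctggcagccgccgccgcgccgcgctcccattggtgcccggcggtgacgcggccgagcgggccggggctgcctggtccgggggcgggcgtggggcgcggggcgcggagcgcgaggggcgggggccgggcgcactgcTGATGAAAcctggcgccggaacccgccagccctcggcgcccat

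Among the cationic carriers, SLC7A1 (ENSG00000139514, chromosome 13, 29509410 to 29595688), also called CAT1, the main importer of arginine and lysine in most cells, rose. It read 153 and 142 CPM with DMSO and 237 and 247 CPM with 7A, and the groups did not overlap. The change was 0.71 ± 0.12 (edgeR adjusted p 0.00313), and it passed in all 17 alternatives, between 0.44 with library totals alone and 0.87. SLC7A2, an arginine carrier of liver and macrophages, did not pass, with 2.96 and 3.27 CPM in DMSO and 1.34 and 6.19 CPM in 7A (0.28 ± 0.82, edgeR adjusted p 0.806). Its 7A libraries lay on opposite sides of the DMSO pair, and with 1 of them left out it was called in opposite directions. The change was 1.01 (edgeR adjusted p 0.0289) when 7A replicate 1 was dropped, whereas dropping 7A replicate 2 gave -1.22 (edgeR adjusted p 0.0383). SLC7A3, SLC7A4 and SLC7A14 had at most 2 counts in any library. The light chain SLC7A9, the partner of SLC3A1, fell from 21 counts in each DMSO library to 0 and 4 counts in the 7A libraries (edgeR adjusted p 0.00869). Its fitted change of -3.92, the lowest of the members, depends on the prior count and is no bound.

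In the SLC1A family a neutral exchanger rose, 2 glutamate carriers fell and the remaining 2 tested genes did not pass. SLC1A5 (ENSG00000105281, chromosome 19, 46774883 to 46788594), also called ASCT2, which brings in glutamine in exchange for other neutral amino acids, read 252 and 224 CPM with DMSO and 529 and 487 CPM with 7A. The groups were well apart, at 238 ± 20.1 and 508 ± 30.1 CPM (SD, n = 2 per group), a change of 1.09 ± 0.13 (edgeR adjusted p 0.00108). An antisense RNA, AC008622.2, overlaps 23.4% of its exon length, and sense and antisense reads cannot be told apart without strand. Its relative SLC1A4, also called ASCT1, which carries serine and alanine, read 9.38 and 7.84 CPM with DMSO and 10.9 and 10.5 CPM with 7A. The groups did not overlap, but the change did not pass (0.32 ± 0.19, edgeR adjusted p 0.188), but it did after the GC and length correction (0.63, edgeR adjusted p 0.0252).

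SLC1A3, a glutamate and aspartate carrier best known from glia, fell by 1.31 ± 0.22, from 10.4 and 13.5 CPM to 5.34 and 4.27 CPM (edgeR adjusted p 0.00339). SLC1A1, the glutamate carrier of epithelia, was the better expressed of these and read 48.2 and 51.4 CPM with DMSO and 45.8 and 41.2 CPM with 7A (-0.20 ± 0.14, edgeR adjusted p 0.281). Its 7A libraries were both below its DMSO libraries without passing. SLC1A2, the main glutamate carrier of astrocytes, had 12 and 10 counts with DMSO and 2 and 4 counts with 7A. Its fall passed (edgeR adjusted p 0.0277) but was lost when any of the 4 libraries was left out (edgeR adjusted p 0.0893 to 0.131).

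The SLC38A family, the sodium-coupled neutral carriers, held 1 rise and 1 fall among 8 tested genes. SLC38A2, also called SNAT2, the carrier known to be induced when amino acids run short, read 531 and 516 CPM with DMSO and 562 and 457 CPM with 7A. The groups overlapped (-0.04 ± 0.14, edgeR adjusted p 0.834). SLC38A1, also called SNAT1, a related glutamine importer, read 118 and 141 CPM with DMSO and 141 and 104 CPM with 7A and overlapped too (-0.08 ± 0.18, edgeR adjusted p 0.722). The direction of both depended on the analysis settings. Both turned higher with the joint correction for GC and length, whose 2 parts were not fitted apart. Both also turned without 7A replicate 2 (0.10 for SLC38A2 and 0.12 for SLC38A1). After the GC and length correction SLC38A2 was at 0.31 (edgeR adjusted p 0.0485) and SLC38A1 at 0.54 (edgeR adjusted p 0.0122), both of them called higher. With a term for replicate number added, SLC38A2 no longer passed (0.32, edgeR adjusted p 0.0656). SLC38A1 still did (0.53, edgeR adjusted p 0.0332).

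SLC38A5, also called SNAT5, which moves glutamine, serine and glycine against protons, rose. It read 22.4 and 20.7 CPM with DMSO and 44.6 and 49.2 CPM with 7A, with no overlap. The change was 1.12 ± 0.15 (edgeR adjusted p 0.00153) and passed in all 17 alternatives. SLC38A3, also called SNAT3, the system N carrier of liver and brain, fell by 0.62 ± 0.21, from 10.6 and 9.76 CPM to 5.62 and 7.58 CPM (edgeR adjusted p 0.0441). It no longer passed when either DMSO library (edgeR adjusted p 0.17 and 0.108) or 7A replicate 1 (0.169) was left out. SLC38A9, the lysosomal arginine sensor upstream of mTORC1, did not pass, with 7.39 and 10.7 CPM in DMSO and 9.04 and 8.89 CPM in 7A (-0.02 ± 0.22, edgeR adjusted p 0.961). SLC38A7, the lysosomal exporter of glutamine and asparagine, did not pass either (0.38 ± 0.18, edgeR adjusted p 0.117), nor did SLC38A6 (0.59 ± 0.23, edgeR adjusted p 0.0698) or SLC38A10 (0.11 ± 0.12, edgeR adjusted p 0.448). For these last 3 genes both 7A libraries lay above both DMSO libraries.

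Neither tested member of the SLC36A family, proton-coupled carriers of small neutral amino acids, passed. SLC36A1, also called PAT1 and found on lysosomes, read 17.1 and 14.1 CPM with DMSO and 13.4 and 14.2 CPM with 7A (-0.18 ± 0.17, edgeR adjusted p 0.417). SLC36A4 read 20.5 and 22.3 CPM with DMSO and 19.9 and 17.8 CPM with 7A (-0.18 ± 0.16, edgeR adjusted p 0.357), with both 7A libraries the lower. The lysosomal members SLC36A1, SLC38A7 and SLC38A9 thus had no call in either direction.

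Of the SLC43A family 2 of 3 rose. SLC43A1, also called LAT3, a leucine carrier that works without sodium or a heavy chain, read 6.89 and 6.40 CPM with DMSO and 14.1 and 16.1 CPM with 7A (1.18 ± 0.18, edgeR adjusted p 0.00235). SLC43A3, which carries purine nucleobases and not amino acids, read 7.48 and 5.97 CPM with DMSO and 13.4 and 16.3 CPM with 7A (1.14 ± 0.20, edgeR adjusted p 0.00413). In both genes the groups were apart, and both calls passed in all 17 alternatives. These 2 genes are neighbours on chromosome 11, with 57.0 kb between them, and 29.9% of the exon length of SLC43A3 is shared with AP000781.2 on the same strand. SLC43A2, also called LAT4, overlapped between groups, with 11.6 and 13.3 CPM in DMSO and 17.4 and 10.3 CPM in 7A (0.16 ± 0.27, edgeR adjusted p 0.65). SLC38A1 and SLC38A2 are also neighbours, 88.2 kb apart on chromosome 12. Both passed after the GC and length correction, SLC38A2 near the threshold (edgeR adjusted p 0.0485).

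The SLC6A family, sodium- and chloride-coupled carriers of amino acids, osmolytes and neurotransmitters, had 3 rises and 3 falls among 8 tested genes. SLC6A9, also called GlyT1, which takes up glycine, rose by 1.38 ± 0.18, from 5.66 and 5.26 CPM to 13.3 and 15.2 CPM (edgeR adjusted p 0.00157). Its exons share 7.83% of their length with CCDC24 on the opposite strand. SLC6A8, the creatine carrier, rose by 0.74 ± 0.13, from 77.4 and 67.0 CPM to 123 and 118 CPM (edgeR adjusted p 0.00449). GENCODE 29 holds the pseudogenes SLC6A10P, SLC6A21P and SLC6A6P1 of this family, and how reads were shared among copies is not stated. SLC6A17, a vesicular neutral amino acid carrier known from neurons, read 32.3 and 29 CPM with DMSO and 41.2 and 40.5 CPM with 7A. Its rise of 0.41 ± 0.14 was at the threshold (edgeR adjusted p 0.0493) and was lost when any of the 4 libraries was left out (edgeR adjusted p 0.0841 to 0.261).

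SLC6A6, the taurine carrier, fell by 0.89 ± 0.16, from 71.6 and 63.2 CPM to 32.7 and 40.2 CPM (edgeR adjusted p 0.00437), and this passed in all 17 alternatives. SLC6A16, an orphan of the family, fell by 1.15 ± 0.21, from 5.57 and 5.39 CPM to 2.40 and 2.52 CPM (edgeR adjusted p 0.00412). The groups were apart in both. SLC6A4, the serotonin carrier, had 12 and 21 counts with DMSO and 6 counts in each 7A library. Its fall passed (edgeR adjusted p 0.029), but not when DMSO replicate 2 (0.227) or either 7A library (0.107 and 0.138) was left out. SLC6A13, a carrier of GABA and taurine, had 10 and 32 counts with DMSO and 0 and 8 with 7A and did not pass (edgeR adjusted p 0.0711). It was called lower without DMSO replicate 1 (edgeR adjusted p 0.0444) and after thinning to the smallest library (edgeR adjusted p 0.0403). SLC6A20, the proline carrier, overlapped between groups at 2.01 to 2.79 CPM and did not pass (0.16 ± 0.27, edgeR adjusted p 0.641).

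**Figure D3:**
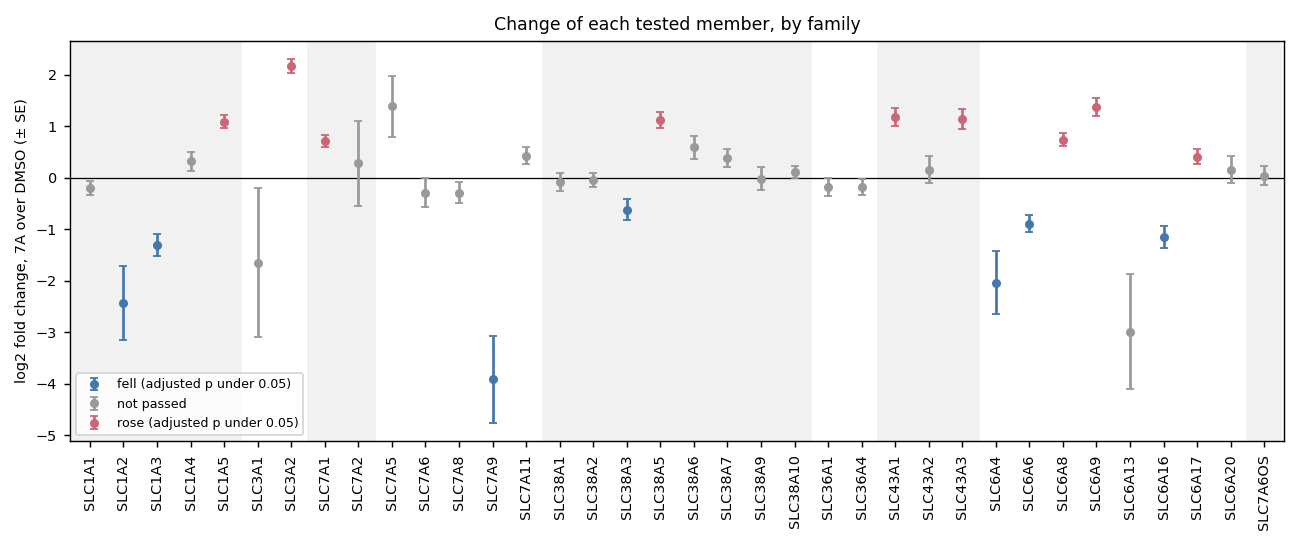
Log2 fold change of 7A over DMSO for the 36 tested members, by family (shaded bands), with 1 standard error either way. SLC3A2 stands highest at 2.17. SLC7A5 is at 1.39 with a standard error of 0.59, and the lowest points are low-count genes such as SLC7A9.

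By level per length, the order in DMSO was SLC38A2 at 79.3 CPM per kb, SLC7A5 at 76.9 and SLC1A5 at 71.4, then SLC3A2 at 29.5 and SLC7A1 at 19.2. The libraries of SLC7A5 (69.9 and 83.9) overlapped those of SLC38A2 (78.2 and 80.4) and of SLC1A5 (67.1 and 75.7), so its place is not resolved, while SLC38A2 lay above SLC1A5 in both. With 7A the order of means was SLC7A5 at 201, SLC1A5 at 152, SLC3A2 at 133, SLC38A2 at 77.2 and SLC7A1 at 31.4. The SLC7A5 libraries, at 293 and 110, spanned those of both genes after it. SLC1A5 (159 and 146) and SLC3A2 (133 in both) did not overlap. The summed level of all 59 carriers was 2274 and 2130 CPM with DMSO and 4307 and 3233 CPM with 7A. Of this, SLC7A5, SLC3A2, SLC38A2 and SLC1A5 held 59.4% and 56.7% with DMSO and 73.6% and 66.6% with 7A. The other 55 carriers summed to 924 and 922 CPM and to 1138 and 1079 CPM.

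Changes in these libraries ran with transcript length across all genes. With the tested genes in 3 bins of nearly equal size by exon length, the median change was 0.26 in the shortest bin, 0.00 in the middle and -0.33 in the longest. The tested carriers were longer than most, with a median exon length of 6602 bases against 4927 over all tested genes. The 4 tested carriers in the shortest bin had a median change of -0.03, the 12 in the middle 0.66 and the 19 in the longest -0.02. Of the 19 in the longest bin 2 rose, against 5 of 12 in the middle bin and 2 of 4 in the shortest. The share of all tested genes that rose in each bin was not computed. A correction for GC and length in each library moved the split among the 36 from 9 higher and 7 lower to 14 higher and 5 lower. That is 38.9% higher and 13.9% lower, beside 30.5% and 19.8% of all tested genes under the same correction. Without it 24.6% of all tested genes were lower. All 9 genes that rose without it also rose with it. The 5 added were SLC1A4, SLC7A11, SLC38A1, SLC38A2 and SLC38A6, and SLC1A2 (-1.45, edgeR adjusted p 0.131) and SLC6A4 (-1.67, edgeR adjusted p 0.0505) stayed lower but no longer passed. Scaling shifted the median of all genes as well, from -0.03 to -0.14 with upper-quartile scaling and to -0.29 with library totals alone, where the 36 had 8 higher and 9 lower (22.2% and 25%) beside 13.9% and 35.2% of all tested genes. Whether the length trend comes from the cells or from the RNA and libraries was not tested.

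**Figure D4:**
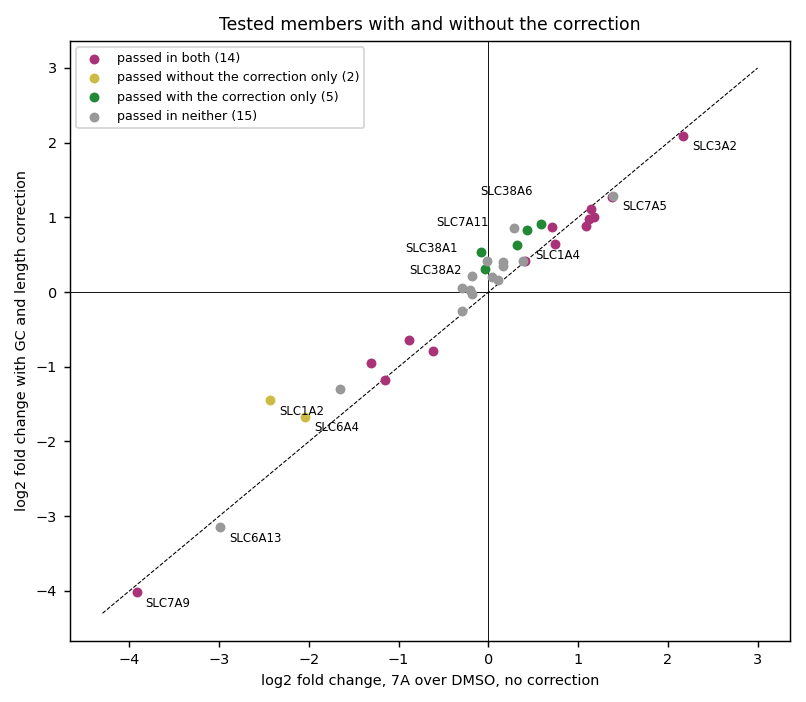
Log2 fold change of the 36 tested members without (x axis) and with (y axis) the correction for GC and transcript length; the dashed line marks equal values. The 5 genes that passed with the correction alone are named and lie above the line, SLC38A1 having gone from -0.08 to 0.54.

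Lists of genes around the transporters are set beside the same background, 23.9% of all tested genes higher, 24.6% lower and a median of -0.03. These shares were 19.8% and 28.9% with upper-quartile scaling, and 13.9% and 35.2% with library totals alone. With the GC and length correction they were 30.5% and 19.8%. Of 12 genes of uncharged tRNA sensing and ATF4 control, 8 rose and 0 fell in edgeR, with a median of 0.71, and EIF2AK4, which encodes the sensor kinase GCN2, did not pass (-0.62, edgeR adjusted p 0.0622). It is named after its values were seen: it was the 1 fall in the list at an unadjusted p under 0.05, it was called lower by DESeq2 (adjusted p 0.0328) and in edgeR with upper-quartile scaling, library totals alone, the 5 CPM filter and without DMSO replicate 1 (adjusted p 0.0281 to 0.0455), and it was at -0.06 after the GC and length correction. ATF5 and TRIB3 rose by 2.98 and 1.90, CEBPB by 1.17, and ATF4 itself rose by 1.30 from 587 and 545 CPM to 1162 and 1627 CPM. The count of rises was 5 without DMSO replicate 2 or without 7A replicate 1, and 5 with library totals alone. The share of all tested genes called higher in these fits was 13.5%, 21.5% and 13.9%. For the lists that follow, leaving out 1 library brought the shares of all tested genes to 13.5% to 21.5% higher and 13.6% to 18.4% lower. Of 32 genes that sense amino acids upstream of mTORC1, 7 rose and 8 fell, median 0.00. SESN2, a leucine-binding sestrin that ATF4 is known to induce, rose by 1.72. SESN3, another sestrin, fell by 2.69, and the folliculin gene FLCN and the gene of its partner FNIP2 fell by 1.54 and 1.5. Without DMSO replicate 2 there were 4 rises, and library totals alone gave 13 falls.

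Of 15 tested genes for glutamine, glutamate and asparagine, 6 rose and 2 fell, median 0.24. PSAT1, which uses glutamate in serine synthesis, rose by 1.90, CAD of pyrimidine synthesis by 1.18 and asparagine synthetase ASNS by 0.97, while GFPT2, of hexosamine synthesis, fell by 1.10. The falls were 1 without DMSO replicate 2, without 7A replicate 2 or with the GC and length correction, and 4 with library totals alone. Of 14 tested genes for cysteine and glutathione, 7 rose and 1 fell, median 0.39. The peroxidase gene GPX4 and the glutathione synthetase gene GSS both rose by 1.18 and MPST by 0.70, while CDO1, at 13 counts or fewer per library, fell (edgeR adjusted p 0.0231). That count of rises was 3 without DMSO replicate 1, 2 without DMSO replicate 2, 4 without 7A replicate 1, 4 with upper-quartile scaling and 2 with library totals alone. CDO1 had too few counts to be tested without DMSO replicate 2 and did not pass without 7A replicate 2 (edgeR adjusted p 0.113) or in DESeq2 (adjusted p 0.0577). Without 7A replicate 1 there were 2 falls. Of 14 tested genes for branched-chain amino acids, arginine and proline, 7 rose and 1 fell, median 0.45. PYCR1, which encodes a reductase of proline synthesis, rose by 1.23 and BCAT2, of branched-chain transamination, by 1.15, while BCKDHA, of branched-chain breakdown, fell by 0.88. With library totals alone 2 of these genes were lower.

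Of 9 tested amino acid and peptide carriers outside the families, 2 rose and 3 fell, median 0.09. The peptide importers SLC15A2 and SLC15A1 fell by 1.54 and 0.98, the vesicular glutamate carrier SLC17A7 fell by 0.79, and SLC17A9, the vesicular nucleotide carrier, rose by 0.73. The rises numbered 1 without DMSO replicate 1, 0 without DMSO replicate 2 and 1 without 7A replicate 1, and the falls 1 without DMSO replicate 2. Of 9 tested genes for proteins that escort or degrade carriers, 3 rose and 2 fell, median -0.04. BSG, a chaperone of lactate and amino acid carriers, rose by 0.73, and LAPTM4B, which brings SLC7A5 and SLC3A2 to lysosomes, rose by 0.64, while the ubiquitin ligase NEDD4 fell by 0.75 and ARL6IP5, which restrains SLC1A1, fell by 0.46. The 2 falls were 0 without DMSO replicate 2 and 0 after the GC and length correction, and 1 without DMSO replicate 1 or 7A replicate 1. The rises were 1 without DMSO replicate 2.

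**Figure D5:**
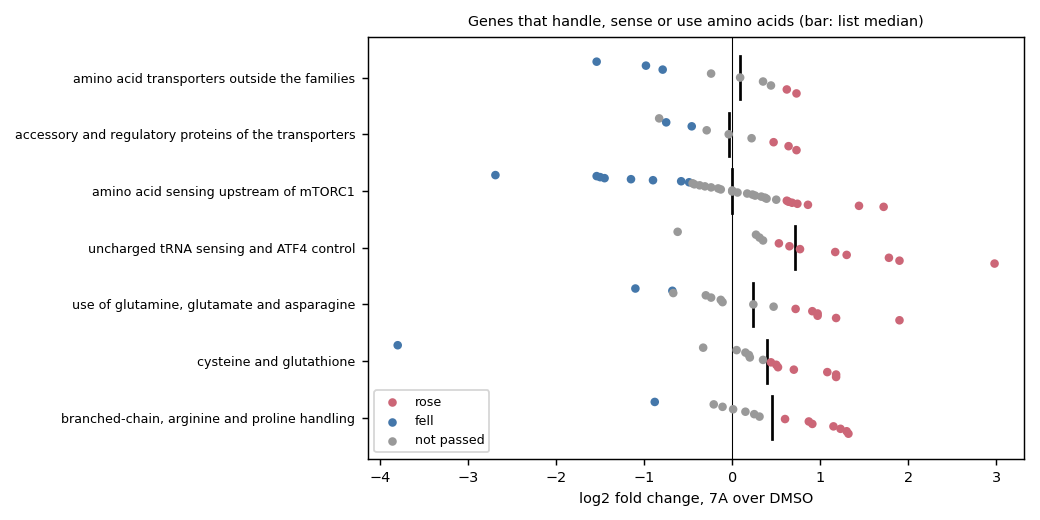
Log2 fold change of 7A over DMSO for the tested genes of the 7 lists around the transporters, 1 point per gene coloured by its call, with a bar at each list's median. The list of uncharged tRNA sensing and ATF4 control lies furthest to the right, with a median of 0.71.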

How the data were processed

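RNA-seq of 4 HCT116 libraries (2 with 7A, 2 with DMSO, by their titles) was analysed from the deposited table of raw counts per Ensembl gene. That the values are counts was read from the table's name and its whole numbers. Per the submitters' processing notes the builds hg38, mm10 and GRCm38 were named together; the aligner, the counter and the annotation, as well as strand, are not stated in the sources. Names and positions came from GENCODE 29 and a gene name table (20224 of 20263 IDs had a symbol), with older symbols through RefSeq. Counts were fitted with edgeR 4.0.16 (R 4.3.3): filterByExpr (minimum count 10), TMM, robust quasi-likelihood test, Benjamini-Hochberg adjustment over 14026 genes. The fit was tested on simulated data. Libraries of one group were not copies of each other (chi-square over its degrees of freedom 37.6 for DMSO, 81.0 for 7A). An exact permutation test with 2 libraries a side has 0.333 as its smallest p. Alternatives used DESeq2 1.42.0, limma-voom 3.58.1, other scalings and filters, a GC and length correction (natural splines, 5 degrees of freedom each, on CPM in log2 with prior count 2), thinning, halved counts, a replicate block and each library left out. Members and lists were chosen with earlier results of these data known. The rule for named members took those that passed with a mean of at least 10 CPM and 16 set by name, with other members that passed. The remaining tested members were added after their values were seen, so that each has a value. In each list up to 4 genes were named by adjusted p, with 1 per direction; 1 gene that the rule names is not reported here. Member calls that changed when 1 library was left out are given beside the member.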

Additional observations from a re-analysis of the deposited data

How the results depend on the processing

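The 36 tested members gave 598 values over 17 alternatives. Of these, 508 kept direction and side of the threshold, 37 lost a call in the same direction and 18 gained one in the same direction. The other 35 turned direction, and among them SLC38A1, SLC38A2 and SLC7A2 also gained a call. Among members averaging 10 CPM or more, SLC1A5, SLC3A2, SLC7A1, SLC38A5, SLC43A1, SLC43A3, SLC6A6 and SLC6A8 passed in every alternative run. Below that level SLC6A9, SLC1A3 and SLC6A16 did so too. SLC7A9 passed wherever it was tested, which the 5 CPM filter did not allow. The count of members called higher was 9, and 14 with the GC and length correction. These were 25% and 38.9% of the members tested, beside 23.9% and 30.5% of all tested genes. With 1 library left out, the count of members called higher stayed close to 9, while the share of all tested genes called higher was below 23.9% each time. Each such fit has a single library in 1 group. The count called lower was 7, and 4 with DESeq2 (which had 9 higher), with the 5 CPM filter and at a threshold of 0.01. The 7 were 19.4% of the members tested, beside 24.6% of all tested genes. The counts of 4 were 11.1%, 14.3% and 11.1% in that order, beside 23.7%, 26% and 12.9% of all tested genes. Leaving out 1 library gave 4 to 6, with 4 without DMSO replicate 2 or 7A replicate 1, where 13.6% and 18.4% of all genes were called lower. All turned values belong to genes that did not pass at first. With the GC and length correction, and then with the replicate block added, SLC1A1 was 0.03 and 0.03, SLC36A4 0.21 and 0.21, SLC38A1 0.54 and 0.53, SLC38A2 0.31 and 0.32, SLC38A9 0.41 and 0.42, and SLC7A6 0.06 and 0.11. With library totals alone SLC38A10 was -0.16, SLC43A2 -0.10, SLC6A20 -0.10, SLC7A2 -0.00 and SLC7A6OS -0.23. SLC7A6OS was -0.07 with upper-quartile scaling and -0.04 with the 5 CPM filter. SLC38A9 was 0.01 with limma-voom, 0.01 with the block and 0.05 after thinning, and SLC7A2 was -0.05 with limma-voom and -0.06 with the block. Leaving out 1 library gave -0.30 to 0.12 for SLC38A1, -0.17 to 0.10 for SLC38A2, -0.25 to 0.28 for SLC38A9, -4.59 to 0.83 for SLC3A1, -0.25 to 0.48 for SLC43A2, -0.07 to 0.38 for SLC6A20, -1.22 to 1.01 for SLC7A2, -0.64 to 0.19 for SLC7A6 and -0.10 to 0.19 for SLC7A6OS. The cause was not tested. The labels share replicate numbers between groups, and the sources do not say whether same-numbered libraries share more than a number. The correlation of same-numbered deviations over 14026 genes was -0.0503, but with 2 pairs it cannot tell whether they do. With the replicate block 9 members were higher and 6 lower, of which 8 and 5 were called without it. These were 25% and 16.7% of the members tested, beside 21.6% and 22.7% of all tested genes. SLC7A5 (1.23, edgeR adjusted p 0.0413) and SLC6A13 (-3.23, 0.0079) gained a call, and SLC6A17 (0.116), SLC1A2 (0.0566) and SLC38A3 (0.0526) lost theirs. With block and correction together SLC7A5 did not pass (1.09, 0.131) and SLC6A13 did (0.0364). The 24 genes with few or no counts could not be tested at this depth.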
